A study of Homo sapiens with 12 samples.

Results

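The transcripts of 10 genes of the cytosolic heat-shock system were followed in K562 cells treated with nilotinib, with hemin, or with both. The genes were taken by symbol from the deposited count table, which lists 58735 genes, and each symbol matched 1 entry. They are the HSP90 genes HSP90AA1 and HSP90AB1, the HSP90 co-chaperones AHSA1 and STIP1, the small heat-shock proteins HSPB1, CRYAB and HSPB8, their partner BAG3, and the heat-shock factors HSF1 and HSF2. All 10 passed the filter on low counts that left 20821 genes for testing.

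HSP90 is an ATP-driven chaperone that completes the folding of kinases and steroid receptors, and its client proteins include the BCR-ABL1 kinase of K562 cells. Small heat-shock proteins work without ATP and hold unfolded proteins until HSP70 can refold them or, with BAG3, pass them to autophagy. Heat-shock factors are transcription factors that form trimers and bind inverted repeats of the 5-letter unit nGAAn, called heat-shock elements, in front of chaperone genes, and hemin is a known activator of this response in K562 cells, where it acts on HSF2 as well as HSF1.

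K562 is a human BCR-ABL1-positive erythroleukemia cell line, nilotinib is an inhibitor of the ABL kinase, and hemin is an oxidized form of heme used to drive erythroid differentiation of this line. Each group had 3 libraries of total RNA, named biological replicates 1 to 3 in the labels. Mock DMSO and mock nilotinib cells received no hemin and carry time 0 h in their library names, whereas hemin DMSO and hemin nilotinib cells were kept for 24 h with 50 μM hemin. The nilotinib dose was 0.1 μM, given ahead of hemin, and the other groups carry DMSO in their names in its place. Since the libraries without hemin carry 0 h, the effect of hemin and that of the extra time in culture cannot be told apart. For K562 cells, the study's methods describe 24 h under DMSO or inhibitor ahead of 24 h with hemin, and collection at 0 h and 24 h. The labels of these libraries do not give the time under nilotinib. A longer exposure in hemin nilotinib than in mock nilotinib cannot be told apart from the presence of hemin. All libraries come from 1 cell line, so they describe that line only.

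Libraries held 33457078 to 50506990 counts, so 3 counts, taken as the limit of detection, equal 0.0540 to 0.0957 CPM (counts for each 1000000 counts of the library, with library sizes scaled by TMM). The K562 markers GATA1, TAL1, LMO2, BCR and ABL1 were all above that limit in each library, with a summed level of 1136 to 1346 CPM in mock DMSO, 2007 to 2216 CPM in mock nilotinib, 667 to 727 CPM in hemin DMSO and 1583 to 2032 CPM in hemin nilotinib. The 6 markers of T cells, B cells, epithelium, fibroblasts and endothelium summed to 90.3 to 101 CPM in mock DMSO, 55.4 to 72.3 CPM in mock nilotinib, 84.7 to 111 CPM in hemin DMSO and 49.3 to 58.5 CPM in hemin nilotinib. The T-cell marker CD3E and the B-cell marker MS4A1 were at or near 0 in all groups. Mitochondrially encoded transcripts took 1.45% to 2.88% of counts in hemin DMSO and 5.20% to 8.83% in the other groups. The part of these differences in the results on the heat-shock genes was not tested. In RNA from a whole culture, fewer cells that express a gene and less of its RNA per cell cannot be told apart.

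The promoters of the HSP90 pair are shown because they hold the complete binding motif of the heat-shock factors. RefSeq promoter windows (build GRCh38.p14, 250 bases before to 50 bases after an annotated start) were found for 8 of the 10 genes, in 14 windows, and were missing for CRYAB and HSF1. They were searched on both strands for a heat-shock element of 3 units, that is GAA and TTC in turn with any 2 bases between them. HSP90AA1 had 1 such element, which begins 88 bases before the start at base 102087044 of chromosome 14. HSP90AB1 had 2, which begin 165 and 112 bases before the start at base 44247943 of chromosome 6. Capitals mark the elements in these sequences, written 5′ to 3′ on the strand of the gene:
HSP90AA1, chr14:102087112-102087140, minus strand: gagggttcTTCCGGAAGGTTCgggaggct
HSP90AB1, chr6:44247758-44247863, plus strand: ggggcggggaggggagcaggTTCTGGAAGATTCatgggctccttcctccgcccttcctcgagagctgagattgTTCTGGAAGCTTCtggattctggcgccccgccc

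The HSP90AA1 stretch lies before 1 start of the gene and inside an annotated exon of a longer HSP90AA1 transcript, while the HSP90AB1 stretch overlaps no annotated exon of its gene. An element of 3 units occurred in 0.490% of all 35116 windows and in at least 1 window of 0.608% of the genes. The shorter form of 2 units, GAANNTTC or TTCNNGAA, which each longer element contains, occurred in 13.5% of all windows and in at least 1 window of 16.2% of all genes and of 5 of the 8 genes. Beside the HSP90 pair these were HSPB1, with GAAGGTTC 182 bases before its start, HSPB8, with GAATATTC 88 bases before its start and GAAGTTTC just after it, and STIP1, with TTCCAGAA just after its start. No window of AHSA1, BAG3 or HSF2 held these letters. A match describes the sequence and does not show that a factor was bound in these cells.

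The chaperone genes had their highest level in hemin DMSO, and nilotinib lowered that level. With hemin in the absence of nilotinib, 9 of the 10 genes rose and HSF1 fell (edgeR quasi-likelihood test, Benjamini-Hochberg adjusted p under 0.05), where 53.6% of all genes tested changed, 25.7% upward and 27.8% downward. The median log2 fold change of the 10 genes was 3.76, beside -0.05 for all genes. With nilotinib in hemin-treated cells, 9 fell and HSF1 rose, where 64.2% of all genes changed, 32.4% upward and 31.8% downward, and the median of the 10 was -2.36, beside 0.02 for all genes. These comparisons share the hemin DMSO libraries, so their opposite signs are not independent of each other.

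In cells under nilotinib, hemin raised 8 of the 10 genes, where 5.8% of all genes changed, 3.52% upward and 2.28% downward, and the median log2 fold change was 1.49, beside 0.03 for all genes. These counts depended on single libraries: without mock nilotinib replicate 2 only 5 of the 10 genes and 213 of all genes were called, and without hemin nilotinib replicate 1 the count over all genes was 2793, against 1208 with all libraries. Without hemin, nilotinib lowered HSP90AB1, AHSA1 and STIP1 and raised HSF1, so 4 of the 10 changed, where 42.5% of all genes did, 20.7% upward and 21.8% downward. The median of the 10 was 0.01. The libraries of both groups did not overlap for all 10 genes under hemin without nilotinib and for all 10 under nilotinib with hemin, where 62.7% and 63.5% of all genes did not overlap.

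**Figure D1:**
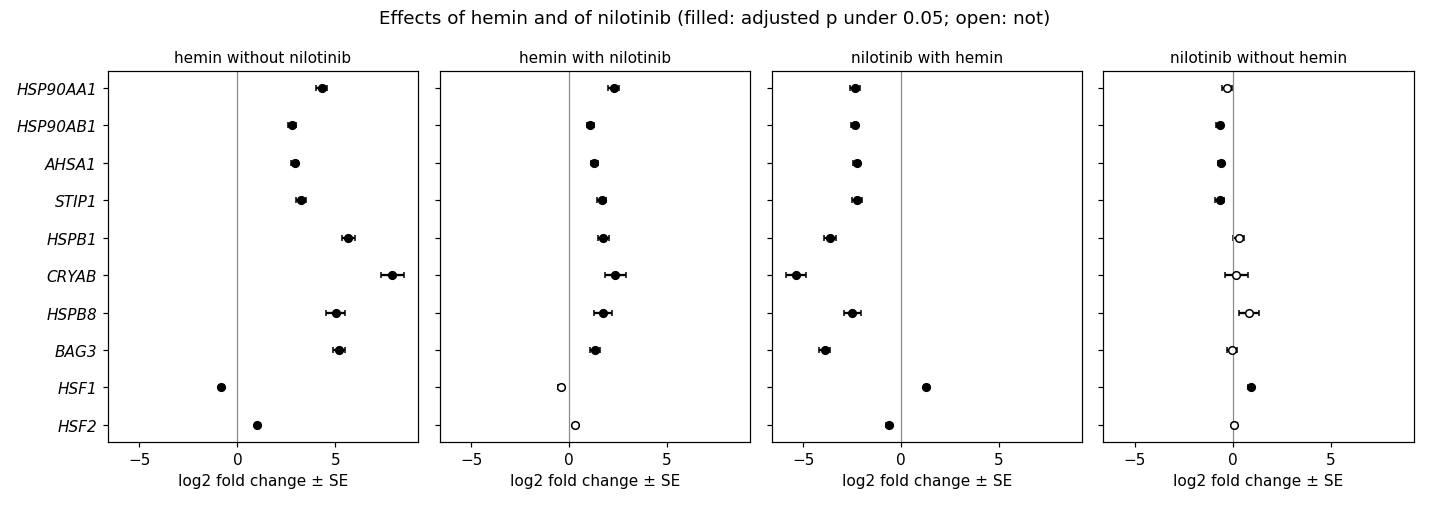
Log2 fold change (horizontal axis) with its standard error for each of the 10 genes in 4 comparisons of 3 against 3 libraries, from edgeR. Filled points have an adjusted p under 0.05 and open points do not, and the panel of hemin with nilotinib shows smaller rises than that of hemin without nilotinib, for example 2.36 against 7.91 for CRYAB.

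HSP90AA1 encodes the stress-inducible form of HSP90 (chr14:102080738-102139699, minus strand, GRCh38). Its level was 632, 604 and 640.1 CPM in mock DMSO, 652, 455 and 422 CPM in mock nilotinib, 13587, 12245 and 11092 CPM in hemin DMSO and 1402, 2618 and 3291 CPM in hemin nilotinib. The hemin DMSO libraries stood above all others, the hemin nilotinib libraries stood between them and the mock libraries, and the mock groups overlapped. Hemin raised HSP90AA1 19.7-fold without nilotinib (log2 4.30, SE 0.28, adjusted p = 1.42e-08) and 4.78-fold with nilotinib (log2 2.26, SE 0.26, adjusted p = 0.000311). Nilotinib lowered it 5.05-fold in hemin-treated cells (log2 -2.34, SE 0.26, adjusted p = 1.06e-06), and without hemin the log2 difference was -0.30 (SE 0.25, adjusted p = 0.358).

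HSP90AB1 encodes the constitutive form of HSP90 (chr6:44246166-44253888, plus strand). It measured 2352, 2543 and 2542 CPM in mock DMSO, 1701, 1526 and 1424 CPM in mock nilotinib, 16844, 20175 and 14017 CPM in hemin DMSO and 2537, 3406 and 3868 CPM in hemin nilotinib. Here the mock groups were apart, with nilotinib lower, while the hemin nilotinib libraries overlapped those of mock DMSO, with replicate 1 inside the mock DMSO range. Hemin raised it 6.86-fold without nilotinib (log2 2.78, SE 0.20, adjusted p = 3.06e-08) and 2.11-fold with nilotinib (log2 1.08, SE 0.19, adjusted p = 0.00557). Nilotinib lowered it 5.20-fold with hemin (log2 -2.38, SE 0.20, adjusted p = 4.58e-08) and 1.60-fold without hemin (log2 -0.68, SE 0.19, adjusted p = 0.00863). The fall of HSP90AB1 without hemin missed the threshold with limma on log2(FPKM + 1), at an adjusted p of 0.0529.

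**Figure D2:**
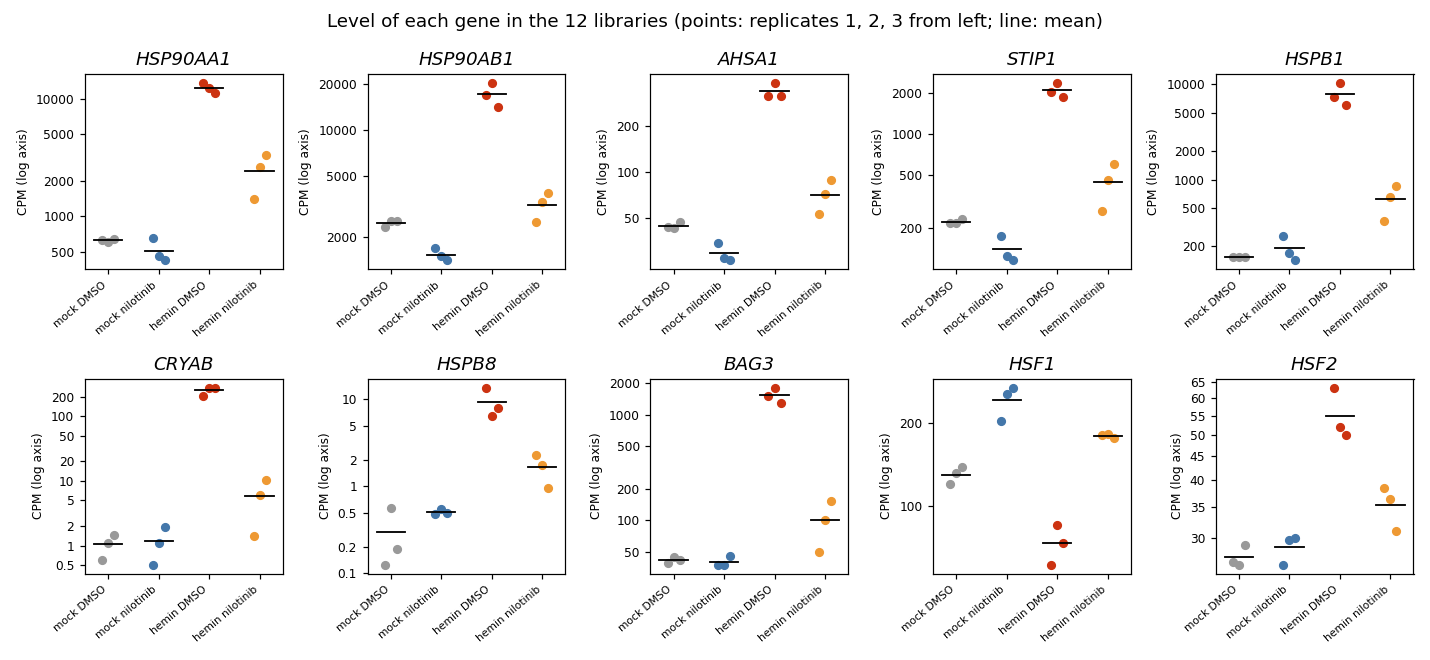
Level of each of the 10 genes in CPM (vertical log axis, its own range in each panel) in the 12 libraries; points are replicates 1 to 3 and lines are group means. For 9 genes hemin DMSO is the highest group, whereas for HSF1 it is the lowest, at 61.3 to 85.4 CPM.

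Per kilobase of gene length, HSP90AB1 was the highest of the 10 genes in each group, at a mean of 832 CPM per kilobase in mock DMSO and 5709 in hemin DMSO. The ratio of HSP90AA1 to HSP90AB1 counts per kilobase was 0.135 to 0.153 in mock DMSO, 0.168 to 0.218 in mock nilotinib, 0.345 to 0.458 in hemin DMSO and 0.314 to 0.483 in hemin nilotinib. The inducible form thus took a larger place beside the constitutive form in all 6 libraries with hemin than in all 6 without, and the ranges of the groups with hemin overlapped. Among all genes of a library, HSP90AB1 ranked 15 to 16 by counts in mock DMSO and 2 to 4 in hemin DMSO, and HSP90AA1 moved from rank 126 to 158 to rank 7.

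**Figure D3:**
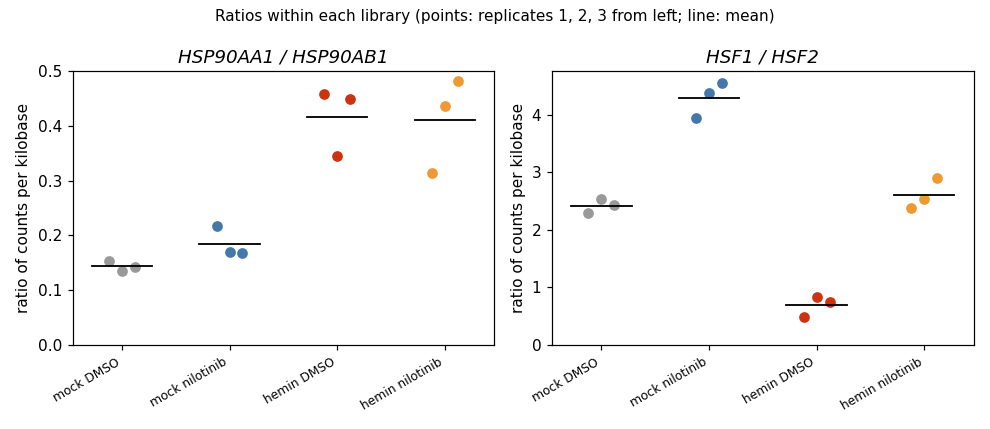
Ratio of counts per kilobase of HSP90AA1 to HSP90AB1 (left) and of HSF1 to HSF2 (right) within each of the 12 libraries; points are replicates 1 to 3, lines are group means and the vertical axes start at 0. The left ratio is at most 0.218 in mock libraries and at least 0.314 with hemin, and the right ratio is below 1 only in hemin DMSO.

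The co-chaperones AHSA1 and STIP1 moved with the HSP90 pair under hemin alone and under nilotinib with hemin. AHSA1 encodes an activator of the HSP90 ATPase (chr14:77457870-77469474, plus strand) and measured 43.5, 42.9 and 47.0 CPM in mock DMSO, 34.1, 27.3 and 26.3 CPM in mock nilotinib, 314, 385 and 318 CPM in hemin DMSO and 52.7, 71.3 and 88.6 CPM in hemin nilotinib. All 4 groups were apart, in the order hemin DMSO, hemin nilotinib, mock DMSO and mock nilotinib. Hemin raised it 7.63-fold without nilotinib (log2 2.93, SE 0.18, adjusted p = 8.4e-09) and 2.43-fold with nilotinib (log2 1.28, SE 0.17, adjusted p = 0.00109). Nilotinib lowered it 4.79-fold with hemin (log2 -2.26, SE 0.17, adjusted p = 1.95e-08) and 1.52-fold without (log2 -0.61, SE 0.17, adjusted p = 0.0083).

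STIP1, also called HOP, is the adaptor that holds HSP70 and HSP90 together (chr11:64185272-64204543, plus strand). It measured 218, 218 and 235 CPM in mock DMSO, 177, 126 and 117 CPM in mock nilotinib, 2042, 2381 and 1879 CPM in hemin DMSO and 268, 457 and 605 CPM in hemin nilotinib, with the groups apart in the same order. The rise with hemin was 9.38-fold without nilotinib (log2 3.23, SE 0.25, adjusted p = 5.61e-08) and 3.17-fold with it (log2 1.66, SE 0.24, adjusted p = 0.00135). The fall with nilotinib was 4.74-fold with hemin (log2 -2.24, SE 0.24, adjusted p = 6.86e-07) and 1.60-fold without (log2 -0.68, SE 0.23, adjusted p = 0.0257). The fall without hemin missed the threshold when mock DMSO replicate 2 or 3 or mock nilotinib replicate 2 or 3 was left out, at an adjusted p of 0.0513, 0.0599, 0.0739 and 0.0855.

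In the main fit, the small heat-shock proteins rose by larger factors than the HSP90 genes under hemin alone, from lower levels per kilobase. This difference between genes was not tested, and for HSPB8 it depended on the method. The log2 rise of HSPB8 was 1.92 with limma on log2(FPKM + 1) and 4.07 on log2(FPKM + 0.1). That of HSP90AA1 was at least 4.06 in every alternative. HSPB1, also called HSP27, binds unfolded proteins and actin (chr7:76302544-76304295, plus strand). It measured 154, 156 and 155 CPM in mock DMSO, 258, 169 and 143 CPM in mock nilotinib, 7394, 10287 and 5986 CPM in hemin DMSO and 368, 659.7 and 860.2 CPM in hemin nilotinib. The mock groups overlapped, mock nilotinib replicate 1 was the highest mock library, and the hemin nilotinib libraries stood above all mock libraries. Hemin raised HSPB1 50.9-fold without nilotinib (log2 5.67, SE 0.34, adjusted p = 7.15e-09) and 3.31-fold with nilotinib (log2 1.73, SE 0.28, adjusted p = 0.00333). Nilotinib lowered it 12.5-fold with hemin (log2 -3.65, SE 0.31, adjusted p = 4.85e-08), and without hemin the log2 difference was 0.29 (SE 0.28, adjusted p = 0.416).

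CRYAB encodes αB-crystallin, known from the eye lens and muscle (chr11:111908565-111923722, minus strand). It was low without hemin, at 0.594, 1.10 and 1.44 CPM in mock DMSO and 0.507, 1.08 and 1.96 CPM in mock nilotinib. It reached 203, 277 and 268 CPM in hemin DMSO and 1.41, 6.07 and 10.4 CPM in hemin nilotinib, where replicate 1 lay within the range of the mock libraries. This was the largest rise among the 10 genes under hemin alone, 239.7-fold (log2 7.91, SE 0.59, adjusted p = 4.08e-08), and the largest fall under nilotinib with hemin, 41.6-fold (log2 -5.38, SE 0.51, adjusted p = 1.98e-07).

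With nilotinib, hemin raised CRYAB 5.13-fold (log2 2.36, SE 0.53, adjusted p = 0.0196) although the libraries overlapped. This call was lost without mock nilotinib replicate 1 or 2, at an adjusted p of 0.0591 and 0.0889, and without hemin nilotinib replicate 2 or 3, at 0.0611 and 0.0629, and without the last library the rise was 1.67 on the log2 scale. Without that library the fall under nilotinib with hemin was -6.04. For nilotinib without hemin the log2 difference was 0.17 (SE 0.60, adjusted p = 0.843), and its sign turned when mock DMSO replicate 1 or mock nilotinib replicate 3 was left out, to -0.18 and -0.44. Of the exon length of CRYAB, 20.6% overlaps HSPB2 or a readthrough transcript of it on the opposite strand, and whether reads were counted by strand is not given in the sources used here. HSPB2 itself had 19, 17 and 14 counts in hemin DMSO and at most 2 in any other library, beside 6640 to 10564 counts of CRYAB in hemin DMSO.

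HSPB8, the small heat-shock protein that binds BAG3 (chr12:119178642-119221131, plus strand), was the lowest of the 10 genes in each group per kilobase. It had 7, 24 and 10 counts in mock DMSO and 19, 19 and 17 in mock nilotinib, which are 0.126, 0.572 and 0.192 CPM and 0.482, 0.554 and 0.490 CPM. With hemin it rose to 13.7, 6.51 and 7.89 CPM, and in hemin nilotinib it measured 2.33, 1.76 and 0.958 CPM. Mock DMSO replicate 2 lay above the mock nilotinib libraries and the other mock DMSO libraries below them, so the mock groups overlapped, and all libraries with hemin stood above all without. Hemin raised HSPB8 32.6-fold without nilotinib (log2 5.03, SE 0.48, adjusted p = 5.3e-07), and nilotinib lowered it 5.60-fold with hemin (log2 -2.48, SE 0.41, adjusted p = 6.97e-05).

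Under nilotinib, hemin raised HSPB8 3.28-fold (log2 1.71, SE 0.46, adjusted p = 0.0393), a call that was lost without any of the 3 mock nilotinib libraries and without hemin nilotinib replicate 1 or 2, with an adjusted p between 0.0507 and 0.138. For nilotinib without hemin the log2 difference was 0.83 (SE 0.52, adjusted p = 0.213), and without mock DMSO replicate 2 it was 1.66 with an adjusted p of 0.0229. Without that library the rise with hemin alone was 5.84 on the log2 scale.

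BAG3 links small heat-shock proteins to HSP70 and to the autophagy of their clients (chr10:119651370-119677819, plus strand). It measured 39.3, 45.6 and 42.4 CPM in mock DMSO, 38.4, 38.2 and 46.4 CPM in mock nilotinib, 1491, 1797 and 1285 CPM in hemin DMSO and 50.8, 102 and 153 CPM in hemin nilotinib. The mock groups overlapped, and the hemin nilotinib libraries stood above them but below all hemin DMSO libraries. Hemin raised BAG3 35.9-fold without nilotinib (log2 5.17, SE 0.31, adjusted p = 8.4e-09) and 2.49-fold with nilotinib (log2 1.31, SE 0.27, adjusted p = 0.0123). The second call was lost without mock nilotinib replicate 2, at an adjusted p of 0.0670. It was also lost when edgeR was fitted to the 6 libraries compared alone, at 0.0876. With limma the adjusted p was 0.0575 on log2(FPKM + 1) and 0.0516 on log2(FPKM + 0.1). Nilotinib lowered BAG3 14.9-fold with hemin (log2 -3.90, SE 0.30, adjusted p = 1.67e-08), and without hemin the log2 difference was -0.05 (SE 0.27, adjusted p = 0.9).

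The heat-shock factors moved in opposite directions under hemin alone. HSF1, the main factor of the heat-shock response, which is regulated largely after translation (chr8:144291591-144314722, plus strand), measured 119.8, 131 and 138 CPM in mock DMSO, 203, 255 and 268 CPM in mock nilotinib, 61.3, 85.4 and 73.7 CPM in hemin DMSO and 181, 181 and 176 CPM in hemin nilotinib. The 4 groups were apart, in the order mock nilotinib, hemin nilotinib, mock DMSO and hemin DMSO, so both groups with nilotinib stood above both without. Nilotinib raised HSF1 1.87-fold without hemin (log2 0.90, SE 0.14, adjusted p = 8.62e-05) and 2.44-fold with hemin (log2 1.29, SE 0.14, adjusted p = 1.06e-06). Hemin lowered it 1.77-fold without nilotinib (log2 -0.82, SE 0.14, adjusted p = 0.000154). With nilotinib the difference was -0.43 (SE 0.14, adjusted p = 0.0813), and it passed the threshold when the replicate number was added to the fit as a block, at -0.42 and an adjusted p of 0.0499.

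HSF2 is the factor that can form mixed trimers with HSF1 (chr6:122399546-122433119, plus strand). It measured 26.6, 26.3 and 28.9 CPM in mock DMSO, 26.2, 29.7 and 29.96 CPM in mock nilotinib, 63.4, 52.0 and 49.9 CPM in hemin DMSO and 38.5, 36.4 and 31.0 CPM in hemin nilotinib. The mock groups overlapped and the groups with hemin were apart from them and from each other. Hemin raised HSF2 2.02-fold without nilotinib (log2 1.02, SE 0.14, adjusted p = 1.34e-05), and nilotinib lowered it 1.56-fold with hemin (log2 -0.64, SE 0.13, adjusted p = 0.000584). With nilotinib, the log2 difference with hemin was 0.30 (SE 0.13, adjusted p = 0.205), and for nilotinib without hemin it was 0.07 (SE 0.13, adjusted p = 0.699). Per kilobase, the ratio of HSF1 to HSF2 was 2.30 to 2.54 in mock DMSO, 3.94 to 4.56 in mock nilotinib, 0.492 to 0.836 in hemin DMSO and 2.39 to 2.90 in hemin nilotinib, so HSF2 exceeded HSF1 per kilobase in hemin DMSO and in no other group.

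Together the 10 genes took 0.391% to 0.398% of all counts in mock DMSO, 0.253% to 0.330% in mock nilotinib, 3.29% to 4.02% in hemin DMSO and 0.482% to 0.951% in hemin nilotinib. Most of this came from the HSP90 pair, at 2.37% to 2.75% of counts in hemin DMSO, and HSPB1 added 0.564% to 0.868% there.

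The hemin nilotinib libraries differed among themselves in a like order for most of the 10 genes. HSP90AA1, HSP90AB1, AHSA1, STIP1, HSPB1, CRYAB and BAG3, 7 of the 10 genes, were lowest in replicate 1 and highest in replicate 3 of that group. HSPB8 and HSF2 were highest in replicate 1 and lowest in replicate 3. How many of all genes had either order was not counted. Over all genes tested, replicates 1 and 3 of that group had the lowest correlation of log2 CPM (0.969) of any pair of replicates within a group. In mock nilotinib, HSP90AA1, HSP90AB1, AHSA1, STIP1 and HSPB1 were highest in replicate 1. All 10 genes kept their calls and directions under nilotinib with hemin when any of the 6 libraries compared was left out.

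Whether the effect of nilotinib differed between cells with and without hemin was tested as an interaction, in which the presence of hemin and the time under nilotinib cannot be told apart. The difference was past the threshold and negative for 9 of the 10 genes, where 30.1% of all genes passed, 13% with a negative difference. It ranged from -5.55 (SE 0.77) for CRYAB, -3.94 (SE 0.40) for HSPB1 and -3.85 (SE 0.39) for BAG3 to -0.71 (SE 0.19) for HSF2 on the log2 scale. The HSP90 pair and its co-chaperones lay between -1.57 for STIP1 and -2.04 for HSP90AA1. For HSF1 the difference was 0.39 (SE 0.20, adjusted p = 0.154).

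Genes with the most similar pattern were sought among 12494 genes by the root mean square difference of log2 CPM over the 12 libraries, after each gene's mean was removed. The libraries and their scaling are common to all genes, so this is a description. HSP90AB1 was nearest to AHSA1 (0.13), its processed copy HSP90AB3P (0.14) and the mitochondrial co-chaperonin HSPE1 (0.18). HSP90AA1 was nearest to its copy HSP90AA2P (0.20) and the co-chaperone CHORDC1 (0.33), and reads of such copies cannot be told with certainty from those of their parent genes. The copies held at most 0.369% of the counts of HSP90AA1 and 0.300% of those of HSP90AB1 in any library.

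STIP1 was nearest to CACYBP (0.19), AHSA1 (0.20) and the thioredoxin reductase gene TXNRD1 (0.27). The genes near BAG3 included FRMD3 (0.26) and ALDH8A1 (0.30), and those near HSPB1 included BAG3 (0.39). The nearest genes of CRYAB and HSPB8 were farther away, with GCM1 at 0.64 and DUSP1 at 0.73. HSF1 was nearest to CAPN1 (0.10), PBX2 (0.12) and ASH2L (0.13), and HSF2 to DHX29 (0.08), ISY1 (0.11) and MFAP1 (0.12).

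The wider heat-shock and HSP90 system was followed in 5 lists of 57 genes, of which 54 could be tested, all but CRYAA, ODF1 and HSF5. With nilotinib in the absence of hemin, 5 of the 54 rose and 19 fell, where 42.5% of all genes changed, 20.7% upward and 21.8% downward. The median log2 fold change of the 54 was -0.29 there, beside 0.004 for all genes. The 13 other classical HSF1 targets, such as the HSP70 genes and HSPH1, all rose under hemin alone (median log2 fold change 3.34). Of all genes tested, 25.7% rose in that comparison. All 13 fell with nilotinib under hemin (median -2.73), where 31.8% of all genes fell. With nilotinib, 11 of the 13 rose with hemin, where 3.52% of all genes rose. The interaction was negative and past the threshold for all 13, and for 13% of all genes. Without hemin, nilotinib raised 1 of the 13 and lowered 3, where 42.5% of all genes changed. HSPA1A, inducible HSP70, had the largest rise of the 13 at log2 8.26, from a mean of 99.8 CPM in mock DMSO to 30492 CPM in hemin DMSO, followed by its near-identical copy HSPA1B at 7.81, and reads can be split between the pair. HSPA1A measured 332, 2384 and 6788 CPM in hemin nilotinib, the same order of libraries as for most of the 10 genes. Among these 13 genes the largest falls under nilotinib with hemin were those of the collagen chaperone SERPINH1 (log2 -3.86), from a mean of 5625 to 389 CPM, and of the HSP70 exchange factor HSPH1 (log2 -3.83), from 4069 to 287 CPM.

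**Figure D4:**
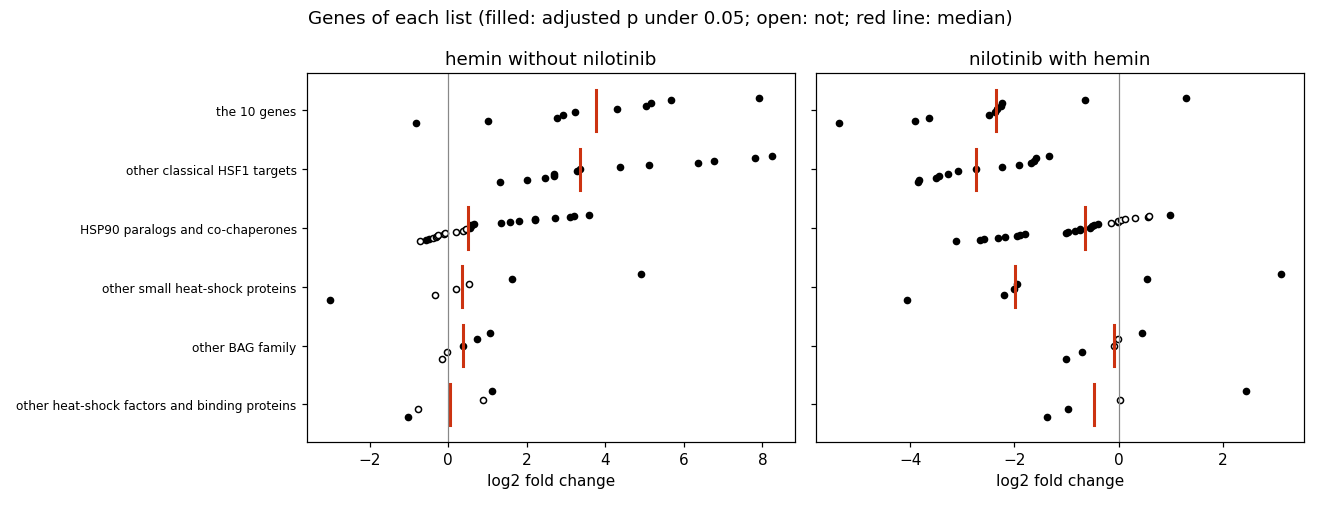
Log2 fold change (horizontal axis) of each gene of the 10 and of the 5 other lists under hemin without nilotinib (left) and nilotinib with hemin (right), from edgeR; filled points have an adjusted p under 0.05 and red lines are medians. All 13 other HSF1 targets lie above 0 on the left and below 0 on the right, while the remaining lists spread to both sides.

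Of 26 HSP90 paralogs and co-chaperones, 14 rose and 2 fell with hemin without nilotinib, and 2 rose and 17 fell with nilotinib under hemin, with medians of 0.50 and -0.65, where 53.6% and 64.2% of all genes changed. The largest rises with hemin were CHORDC1 (log2 3.59), a co-chaperone that binds HSP90, and the immunophilin FKBP4 (3.20), and the falls were the phosphatase PPP5C (-0.57) and the mitochondrial HSP90 TRAP1 (-0.48). Under nilotinib with hemin FKBP4 fell most (-3.13), followed by the endoplasmic reticulum HSP90 HSP90B1 (-2.66), and the myosin chaperone UNC45A (0.99) and FKBP8 (0.56) rose. HSP90B1 was also lower in mock nilotinib, at a mean of 237 CPM (SD 46.4, n = 3), than in mock DMSO, at 887 CPM (SD 95.8, n = 3). Between the same groups FKBP4 was lower in mock nilotinib too (50.8 against 132 CPM). UNC45A (241 against 141 CPM) and FKBP8 (745 against 322 CPM) were higher in mock nilotinib.

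Of 8 other small heat-shock proteins, 6 could be tested. With hemin without nilotinib 2 rose and 1 fell, where 53.6% of all genes changed. With nilotinib under hemin 2 rose and 4 fell, where 64.2% of all genes changed. Those that rose with hemin were HSPB2, whose counts are given above, and HSPB9 (log2 1.63), at 0.522, 0.763 and 0.730 CPM in mock DMSO and 0.950, 2.68 and 2.61 CPM in hemin DMSO. HSPB7 went the other way, with 31, 24 and 31 counts in mock DMSO, 2, 3 and 2 in hemin DMSO and 24, 15 and 32 in hemin nilotinib, so no fold is given against libraries at the limit of detection. HSPB3 fell with nilotinib under hemin (-2.20), and HSPB11 rose (0.55). Without hemin, HSPB3 was also lower in mock nilotinib (mean 0.379 CPM) than in mock DMSO (3.10 CPM), and HSPB11 was higher (48.2 against 30.3 CPM).

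In the BAG family beside BAG3, changes were small. With hemin without nilotinib 3 of 5 rose, where 25.7% of all genes rose, and BAG5 (log2 1.06) and BAG2 (0.72) rose most. With nilotinib under hemin BAG4 (-1.002) and BAG5 (-0.71) fell and BAG1 (0.44) rose, where 64.2% of all genes changed. Among 4 other heat-shock factors and binding proteins, HSBP1, which binds the trimer of HSF1, rose with hemin (1.12) and fell with nilotinib under hemin (-1.37). HSF4, the factor of the lens, fell with hemin (-1.03). It rose with nilotinib under hemin (2.45), from a mean of 5.06 CPM (SD 1.22, n = 3) to 27.8 CPM (SD 7.95, n = 3). HSF4 was also higher in mock nilotinib (mean 37.4 CPM) than in mock DMSO (10.4 CPM), and HSBP1 was lower (36.7 against 59.4 CPM). HSBP1L1 also fell with nilotinib under hemin (-0.97). HSF1 and HSF4 thus shared the direction of change in both comparisons, opposite to that of HSF2 and HSBP1. Both comparisons use the hemin DMSO libraries, so their directions are not independent of each other. For nilotinib without hemin, the log2 difference was 0.90 for HSF1 and 0.07 for HSF2.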

How the data were processed

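RNA-seq of K562 cells was measured in 12 libraries, 3 in each of 4 groups taken from the sample titles. Per the labels, reads were 150-base pairs from an Illumina NovaSeq, and the processing notes name build GRCh38.p12, DESeq2 and DESeq; the aligner, counter and strand setting are not given in the sources used here. The authors deposited raw counts per gene, which were used for every main test, and FPKM, which were used in alternatives only. In the deposited FPKM, counts per kilobase are divided by size factors and not by library totals. A table of group FPKM was not used here.

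Genes were filtered (filterByExpr, minimum count 10, minimum total 15), scaled by TMM and fitted with edgeR 4.0.16 in R 4.3.3 by quasi-likelihood, with 1 mean per group over all 12 libraries. The p-values are two-sided and adjusted by Benjamini-Hochberg over 20821 genes, and SE is the log2 fold change divided by the root of F. The fit was also run on simulated counts in which few genes changed, in equal numbers up and down. That setting differs from these data, where most genes changed in some comparisons, so it does not test the fit for them. CPM use TMM-scaled library sizes, and levels of different genes are compared per kilobase of the deposited gene length. Alternatives used DESeq2 1.42.0, limma 3.58.1, other scalings and filters, and left-out libraries.

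The 10 genes and the lists were chosen with earlier results of these data known. All 10 genes are named, with at most the 2 largest rises and 2 largest falls of each list under nilotinib with hemin and hemin without nilotinib, and the nearest genes by pattern among those with a mean of at least 100 counts; values of HSF4 and HSBP1L1 follow this rule, and HSPA1A values per library were added after they were seen. Same-numbered libraries of mock nilotinib and hemin nilotinib deviated together (correlations of deviations from group means across genes of 0.263, 0.199 and 0.254). In the other comparisons the correlations ran from -0.007 to 0.235. An alternative fit took the replicate numbers as pairs, as a block, whereas all main tests were unpaired. Positions and overlaps are from GENCODE 29, and promoters from RefSeq. No protein sequence was used here. The values of 1 marker and of 1 gene near by pattern are not reported here.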

Additional observations from a re-analysis of the deposited data

Results flagged for a closer look

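The effect of nilotinib differed between cells with and without hemin for 9 of the 10 genes by the test of the interaction in edgeR, and these differences share the hemin DMSO libraries that carry the rise with hemin. On the log2 scale the effect with hemin minus that without was -2.04 for HSP90AA1, -1.70 for HSP90AB1, -1.65 for AHSA1 and -1.57 for STIP1. It was -3.94 for HSPB1, -5.55 for CRYAB, -3.31 for HSPB8 and -3.85 for BAG3. For HSF2 it was -0.71, with an adjusted p of 0.0105 that became 0.0521 without mock DMSO replicate 1. HSPB8 changed to -4.13 without mock DMSO replicate 2, and CRYAB to -4.95 when mock nilotinib replicate 3 was left out and to -6.18 when hemin nilotinib replicate 3 was. Groups of 3 libraries are too small for a test of single outlying libraries.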

How the results depend on the processing

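Over all alternatives, 867 values of single genes kept their direction and side of the threshold, 33 lost the call, 6 gained it and 4 changed sign. The cause was not tested. The counts that moved most were those of hemin with nilotinib. There, 1208 genes changed in all, against 1974 with DESeq2, 1987 among all genes with at least 1 count, 565 with a 2-fold minimum, 741 and 694 with limma on log2(FPKM + 1) and log2(FPKM + 0.1), 183 when only the 6 libraries compared were fitted, and 213 (without mock nilotinib replicate 2) to 2793 (without hemin nilotinib replicate 1) with 1 library left out. Of the 10 genes, 8 changed there, against 5 with either limma fit and with the 6 libraries alone, and 5 to 7 with 1 library left out. The calls lost with either limma fit and with the 6 libraries alone were those of CRYAB, HSPB8 and BAG3. Of the 54 list genes, 22 changed there, against 13 with the 2-fold minimum, 8 with the 6 libraries alone, and 10 to 23 with 1 library left out. With the replicate block as the pairing, 9 of the 10 genes and 1587 of all genes changed there, and 8 and 1600 when the block was used with the 6 libraries alone, an alternative chosen after seeing the data; apart from HSF1 the block changed no call of the 10 genes in any comparison. For nilotinib without hemin, the 2-fold minimum left 0 of the 10 genes (4 without it, and 4 at an unadjusted p under 0.05), 8 of 24 list genes and 4872 of 8851 genes in all. It left 6474 of 11156 genes for hemin without nilotinib and 4073 of 6271 for the interaction. Changes of sign concerned values under nilotinib without hemin that passed no test: BAG3 went from -0.05 to 0.0618 with upper-quartile scaling and from -0.17 to 0.000367 with 1 library left out (above 0 without mock DMSO replicate 2), and CRYAB, at 0.17, from -0.44 (without mock nilotinib replicate 3; -0.18 without mock DMSO replicate 1) to 0.55 with 1 library left out. STIP1 lost its call there with upper-quartile scaling. HSF1 under hemin with nilotinib passed with DESeq2 (-0.44), with library totals (-0.46) and without mock nilotinib replicate 1 (-0.55), and its interaction passed with library totals (0.60). Library totals alone moved the median of all genes to 0.20 under nilotinib with hemin, -0.29 under hemin without nilotinib and 0.27 for the interaction. It split the genes called into 3881 higher and 7578 lower for hemin without nilotinib (5360 and 5796 with TMM), 7719 and 5502 for nilotinib with hemin (6748 and 6611), 527 and 545 for hemin with nilotinib (733 and 475) and 4799 and 1752 for the interaction (3558 and 2713). Upper-quartile scaling moved the median to 0.11 under nilotinib without hemin, and split the interaction into 2914 and 3380, hemin without nilotinib into 6160 and 4918, and nilotinib without hemin into 5068 and 3829 (4304 and 4547 with TMM). Depth limits HSPB8 and CRYAB in the mock groups, where they had 7 to 24 and 20 to 75 counts.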
